A study of Mus musculus with 6 samples.

Results

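The proteasome is the barrel-shaped protease complex that degrades proteins tagged with ubiquitin. Its genes were taken by name, as all those whose platform symbol is Psma, Psmb, Psmc, Psmd, Psme, Psmf or Psmg followed by a digit, a rule that uses the symbol alone, though it was set with earlier results of these data known. This gave 50 of the 19938 genes measured, each read from the probe set (a group of array probes for 1 transcript) with the highest mean. Of the 50, 48 encode subunits, caps, an inhibitor or assembly factors of the proteasome. The other 2 match the symbol rule but encode none of these: Psmc3ip encodes a meiotic recombination factor, and Psme3ip1 encodes a protein that binds the Psme3 cap.

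The samples were liver cells of 3 weaned CyclinB1-GFP transgenic mice, 3.5 weeks old. Each liver was dissociated, and fluorescence sorting gave a GFP-positive fraction, labelled replicating, and a GFP-negative fraction, labelled quiescent, with 3 arrays per group. Both fractions carry the transgene and received no other treatment. Neither the promoter that drives the reporter nor the genetic background of the mice is named in these sources.

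The proteasome core is a stack of alpha and beta rings. The alpha rings control the entrance, and the catalytic sites face inward from the beta rings. A regulatory particle with a ring of ATPases and a lid recognises ubiquitin chains, removes them and unfolds the substrate, and assembly chaperones build both parts. In immune cells and under interferon, the catalytic subunits Psmb5, Psmb6 and Psmb7 are exchanged for Psmb8, Psmb9 and Psmb10, which favours peptides for class I antigen presentation. The machinery is also needed for division itself, since cyclins and securin are destroyed by it at the end of mitosis.

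Between replicating and quiescent liver cells, none of these 50 genes passed the test (limma, Benjamini-Hochberg adjusted p below 0.05, here "called"), while 1.67% of all genes were called. The smallest adjusted p among the 50 was 0.43. At an unadjusted p below 0.05 there were 2 of the 50, Psmb10 and Psmc3ip, or 4% against 8.8% of all genes. The measured log2 differences, GFP-positive minus GFP-negative, ran from -0.40 (Psmb10) to 0.37 (Psmc3ip). Their median was -0.048, beside -0.027 over all genes. Of the 50, 33 lay below 0 and 17 (34%) above, against 44.3% of all genes above 0. In 4 of the 50 genes (8%) the 2 groups did not overlap, Psma8 and Psmc3ip above and Psmb10 and Psmg3 below, against 13.8% of all genes. The 95% interval of each of the 50 differences lay inside a 2-fold change in either direction, as it did for 93.8% of all genes. For 32 of the 50 it lay inside a 1.5-fold change, against 64.5% of all genes, and for the other 18 a difference of that size was not excluded. The intervals are not adjusted for the number of genes and do not say what size of difference the test would call.

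**Figure D1:**
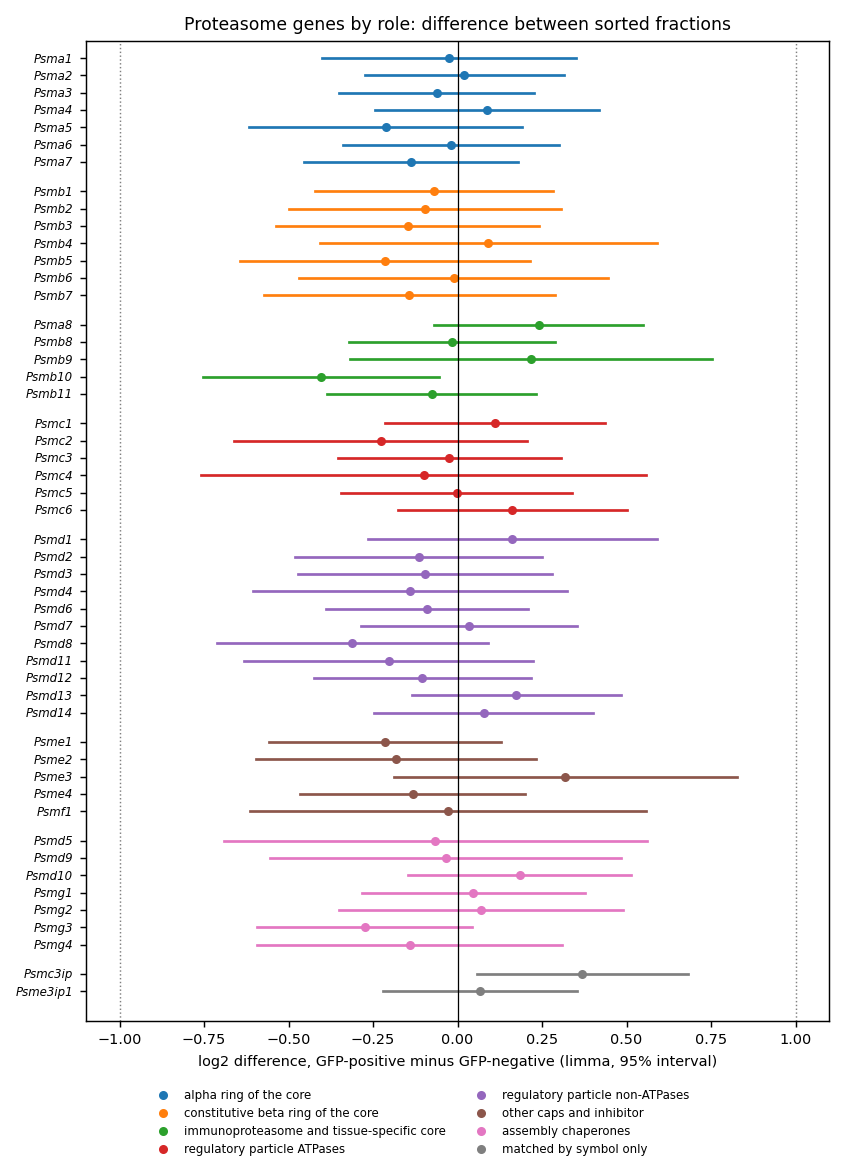
Log2 difference of each of the 50 genes, GFP-positive minus GFP-negative, as the limma estimate (point) with its 95% interval (line), n = 3 arrays per group, coloured by role; dotted lines mark a 2-fold change. All 50 intervals lie between the dotted lines, and only those of Psmb10 (below) and Psmc3ip (above) leave out 0.

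The sort itself separated dividing cells. Cdk1, the kinase of mitotic entry, rose 22.7-fold, from a log2 intensity of 5.31 ± 0.28 (mean ± SD, n = 3) in quiescent cells to 9.82 ± 0.13 in replicating ones (adjusted p = 1.2e-06). Top2a was 21.9-fold higher, and all 14 listed mitosis genes rose, which the sort on a cyclin B1 reporter builds in. Over all genes, 310 rose and 23 fell. The median log2 intensity of an array lay between 4.60 and 4.74. Hepatocyte markers were high in both groups, Alb between 13.22 and 13.34 on the log2 scale, and none of 9 was called. Both arrays with the number 2 differed from the other 4 in the female transcript Xist (9.03 and 9.80 against 3.73 to 4.04).

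In the alpha ring all 7 genes were measured, and their differences were small. Psma5 had the largest (-0.21 ± 0.18 SE, adjusted p = 0.86), followed by Psma7 (-0.14 ± 0.14, adjusted p = 0.88). Psma5 read 10.57, 10.23 and 9.91 in GFP-negative arrays 1, 2 and 3 and 10.04, 9.93 and 10.10 in GFP-positive arrays 1, 2 and 3. The high value of GFP-negative array 1 stood apart from the rest, which overlapped, and without it the difference was -0.043. Psma7 read 10.95, 10.91 and 10.74 against 10.88, 10.62 and 10.69, with overlap. Psma1, Psma2, Psma3, Psma4 and Psma6 differed by -0.025, 0.020, -0.061, 0.086 and -0.020. Psma3, an alpha subunit read on 3 probe sets, was the tightest, with means of 11.39 ± 0.04 among quiescent and 11.33 ± 0.06 among replicating samples, and its other 2 probe sets gave -0.051 and -0.076.

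The constitutive beta ring, which holds the active sites, had a median difference of -0.095 over its 7 genes, 6 of them below 0. Psmb5, the chymotrypsin-like subunit, had the largest difference (-0.22 ± 0.19, adjusted p = 0.87). It read 8.95, 8.75 and 8.72 in GFP-negative arrays 1 to 3 and 8.78, 8.17 and 8.82 in GFP-positive arrays 1 to 3. The groups overlapped, GFP-positive array 2 alone was low, and without it the difference was -0.0060. Psmb6, the caspase-like subunit, differed by -0.012, with 10.18, 10.08 and 9.56 against 10.14, 9.63 and 10.02. Psmb7, the trypsin-like one, differed by -0.14, with 10.51, 10.44 and 9.92 against 10.30, 9.90 and 10.24. In both genes GFP-negative array 3 and GFP-positive array 2 were the low ones. Of the structural subunits, Psmb1, Psmb2 and Psmb3 differed by -0.069, -0.095 and -0.15 (Psmb3 adjusted p = 0.90), and the Psmb3 difference was 0.037 without the arrays of number 2. Psmb4, which completes the ring, was the 1 gene of the ring above 0, at 0.091. Its values were 11.65, 11.59 and 10.84 in GFP-negative and 11.59, 11.24 and 11.51 in GFP-positive arrays, so that GFP-negative array 3 was the low one.

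The beta ring genes had high and low arrays in common, and these did not follow the groups. All 7 were highest in GFP-negative array 1, and the lowest array was GFP-positive 2 for 4 of them and GFP-negative 3 for the other 3. Their mean log2 level was 9.95, 9.85 and 9.46 in GFP-negative arrays 1 to 3 and 9.81, 9.42 and 9.78 in GFP-positive arrays 1 to 3. The low arrays thus lay 1 in each group. The alpha ring did not share the dip of GFP-positive array 2, with means of 10.66, 10.55 and 10.38 against 10.54, 10.49 and 10.40. Of the 17 regulatory particle genes, 12 were lowest in GFP-positive array 2, whose mean was 8.61. The means were 9.01, 8.80 and 8.82 in GFP-negative arrays 1 to 3, and 8.92 and 8.98 in GFP-positive arrays 1 and 3. Over the 48 genes, 24 were lowest in GFP-positive array 2 and 14 in GFP-negative array 3. The same arrays were lowest for 20.2% and 13.8% of all genes, and for 25% and 16.6% of the 13292 genes left after a filter on low values. These counts are a description, since genes of 1 array share its RNA and amplification, whose part in the pattern was not tested.

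**Figure D2:**
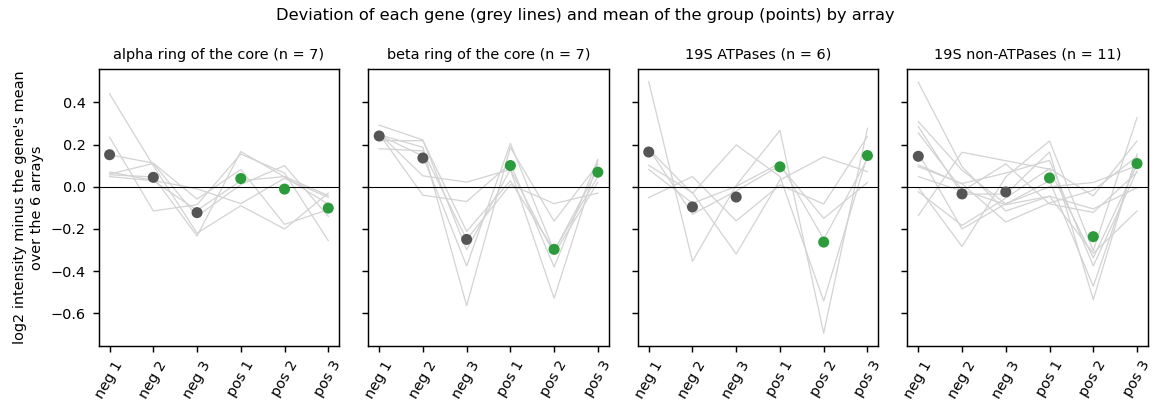
Log2 intensity of each gene minus its own mean over the 6 arrays (grey lines, 1 per gene; vertical axis) and the group mean (points; dark for GFP-negative, green for GFP-positive) for the alpha ring, the constitutive beta ring, and the ATPases and non-ATPases of the regulatory particle (19S in the panel titles). The beta ring dips in GFP-negative array 3 and GFP-positive array 2, the regulatory particle most in GFP-positive array 2, and the alpha ring shows neither dip to that depth.

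Differences between same-numbered arrays had opposite signs. The design text says both fractions came from the same 3 livers, and Xist places number 2 of both groups together, so a number was read as 1 mouse. Xist does not separate numbers 1 and 3, so for them this reading rests on the design text alone. Over all genes, deviations of same-numbered arrays from their group means correlated by 0.198, 0.0618 and -0.0506 in numbers 1, 2 and 3. In number 2 the 7 beta ring genes all lay below 0 (median -0.45), in number 1 all 7 also lay below 0 (median -0.17), and in number 3 all 7 lay above 0 (median 0.27). In number 3, 38 of the 50 genes lay above 0, against 42.9% of all genes. In number 2 it was 13 of the 50, against 52.3% of all genes, and in number 1 it was 17 of the 50, against 48% of all genes. The medians over the 50 were -0.065, -0.23 and 0.17 in numbers 1, 2 and 3. Without the arrays of number 2, 33 of the 50 differences lay above 0 and 17 below, the reverse of the full set, and still none was called. The count above 0 was also over 25 without GFP-negative array 1 (28 of 50) or without GFP-positive array 2 (29 of 50). The direction taken by most of the genes thus changed with which arrays were included. Whether this lay with mice or with single arrays was not tested, and the sex difference of number 2 cannot be told apart from other differences between its arrays and the rest.

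**Figure D3:**
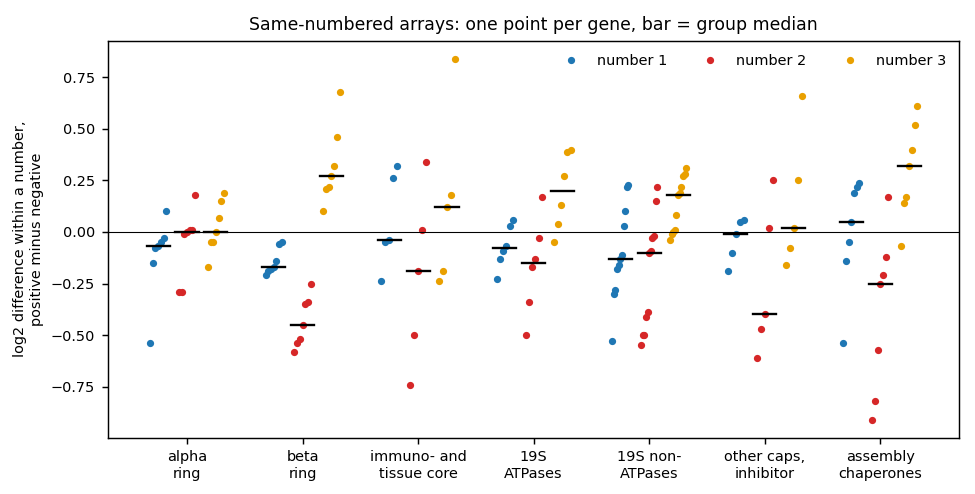
Log2 difference between the GFP-positive and the GFP-negative array of the same replicate number (vertical axis), 1 point per gene (blue, red and yellow for numbers 1, 2 and 3), for the 7 role groups; the bar is the group median. Beta ring points lie below 0 in numbers 1 and 2 and above 0 in number 3.

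Among the ATPases that unfold substrates, Psmc2 had the largest difference (-0.23 ± 0.19, adjusted p = 0.86) and Psmc6 the next (0.16 ± 0.15, adjusted p = 0.87). Psmc2 read 9.12, 8.91 and 9.14 in GFP-negative and 8.99, 8.40 and 9.09 in GFP-positive arrays, and again GFP-positive array 2 alone was low (-0.017 without it). Psmc6 read 9.50, 9.37 and 9.08 against 9.43, 9.54 and 9.47, with GFP-negative array 3 the low one (0.045 without it). Psmc1, Psmc3, Psmc4 and Psmc5 differed by 0.11, -0.024, -0.10 and -0.0030. Psmc4 had the widest spread of the 6, from 8.16 to 9.01 among quiescent and from 7.82 to 8.79 among replicating samples, and in both groups array 2 was the low one.

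The 11 non-ATPase genes of the regulatory particle had a median of -0.096, with 4 above 0. Psmd8, a lid subunit, had the largest difference (-0.31 ± 0.18, adjusted p = 0.71). Its values were 9.35, 8.95 and 8.74 in GFP-negative and 8.81, 8.54 and 8.74 in GFP-positive arrays. The groups overlapped, and without GFP-negative array 1, the highest, the difference was -0.15. The lid subunit Psmd11 followed (-0.20 ± 0.19, adjusted p = 0.87), at -0.017 without GFP-positive array 2 and -0.099 without GFP-negative array 1. Psmd14, the deubiquitinase that cuts chains off the substrate, had means of 9.50 ± 0.18 in the quiescent and 9.58 ± 0.05 in the replicating group. The ubiquitin receptor Psmd4 had means of 8.29 ± 0.18 and 8.15 ± 0.40. The scaffold genes Psmd1 and Psmd2 differed by 0.16 and -0.11. The remaining lid genes Psmd3, Psmd6, Psmd7, Psmd12 and Psmd13 lay between -0.10 (Psmd12) and 0.17 (Psmd13).

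The 3 immunoproteasome subunits showed no common direction. Psmb8 had means of 7.51 ± 0.09 in the quiescent and 7.49 ± 0.11 in the replicating group (95% interval of the difference -0.32 to 0.29). Psmb9 differed by 0.22 (adjusted p = 0.89) with a wide spread in GFP-negative cells, at 8.42, 9.04 and 8.02 against 8.74, 8.53 and 8.85. GFP-negative array 2 was the highest of all and GFP-negative array 3 the lowest, so the GFP-positive values lay inside their range. Within numbers 1, 2 and 3 the Psmb9 difference was 0.32, -0.50 and 0.84. Without number 2 the Psmb9 difference was 0.58 (adjusted p = 0.33). Psmb10 read 6.71, 6.97 and 6.54 in GFP-negative and 6.47, 6.23 and 6.31 in GFP-positive arrays. All of its GFP-positive values lay below all of its GFP-negative ones, but the difference was not called (-0.40 ± 0.16, 95% interval -0.75 to -0.055, adjusted p = 0.45, or 0.52 with the replicate number as a block). Within numbers 1, 2 and 3 it was -0.24, -0.74 and -0.24, and without number 2 it was -0.24 (adjusted p = 0.69).

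Against the constitutive partner on the same array, the log2 ratio of Psmb8 to Psmb5 was 0.20 higher in GFP-positive cells, that of Psmb9 to Psmb6 was 0.23 higher, and that of Psmb10 to Psmb7 differed by -0.26. Each of these 3 ratios overlapped between the groups, and none was tested. Relative to the GFP-negative mean, the Psmb8 to Psmb5 ratio was 0.03, 0.50 and 0.06 in GFP-positive arrays 1 to 3. In GFP-negative arrays 1 to 3 it was -0.09, 0.11 and -0.02, so GFP-positive array 2 alone stood apart. The tissue-restricted subunits Psma8 of the testis and Psmb11 of the thymus lay below the array median on all 6 arrays. Psma8 read at most 4.15 in GFP-negative and 4.26 to 4.49 in GFP-positive arrays (0.24 ± 0.14, adjusted p = 0.71), which did not overlap, and Psmb11 lay between 3.54 and 3.84. No detection calls were used, so neither value shows that the transcript was present.

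**Figure D4:**
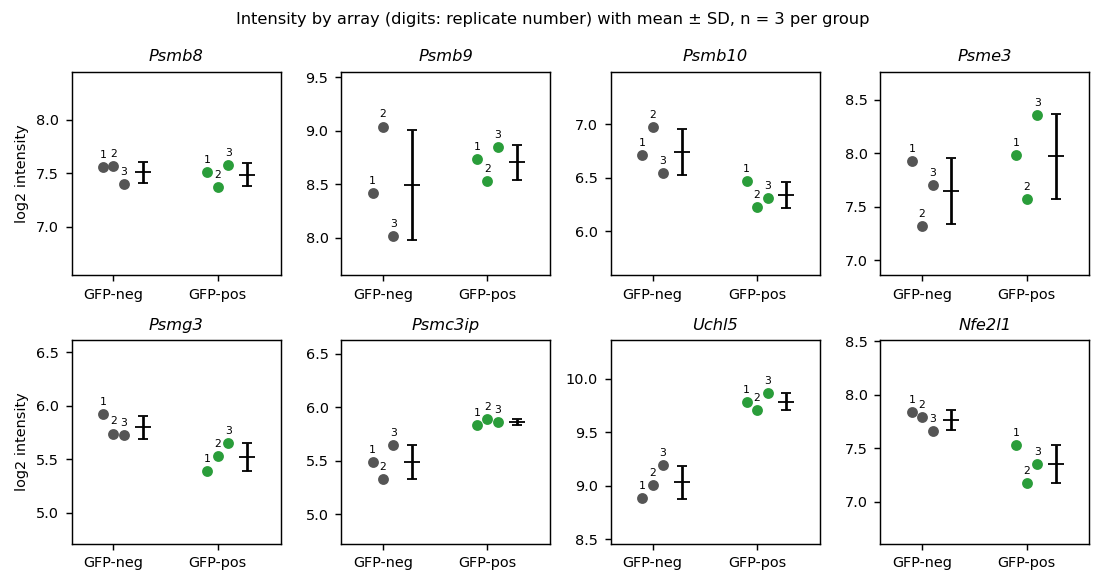
Log2 intensity (vertical axis, the same span in each panel) of 8 genes on each array, GFP-negative in dark and GFP-positive in green, with the replicate number above each point and the mean ± SD (n = 3) beside it. Psmb10, Psmg3, Psmc3ip, Uchl5 and Nfe2l1 show no overlap between the groups, and of these 5 Uchl5 alone was called.

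Markers of immune cells, in which the immunoproteasome is constitutive, were low on these arrays. Of 12 lymphoid markers none was called, 9 lay below the median on each array, and their summed intensity ran from 172 to 234 in GFP-negative and from 191 to 197 in GFP-positive arrays. Ptprc, the pan-leukocyte marker, read 3.45 to 3.71 and 3.49 to 4.03, and Cd2 had the largest difference (-0.25, or -0.059 without GFP-negative array 3). Of 9 dendritic and class II markers 8 lay below the median on each array, with sums of 150 to 184 against 145 to 154, and Clec9a differed most (0.35). The 12 Kupffer and macrophage markers summed to 265 to 326 against 226 to 245, and 5 lay below the median on each array. Of their differences 8 lay below 0 and 4 above (Adgre1, Csf1r, Marco and Timd4). Clec4f, a Kupffer cell lectin, was lower by the test (-0.68 ± 0.13, adjusted p = 0.032). Its adjusted p was 0.077 under the replicate block and 0.070 to 0.15 when any single array was left out. The 9 hepatocyte markers also had lower sums in GFP-positive cells (53510 to 56919 against 49617 to 52374, with 8 of 9 differences below 0). So had 10 endothelial markers (346 to 437 against 314 to 324), led by Cdh5 at -0.71, or -0.38 without GFP-negative array 2. The 9 stellate markers summed to 398 to 430 against 301 to 349, led by Dcn at -0.86. Within numbers 1, 2 and 3 Dcn differed by -0.16, -1.17 and -1.25. The 4 erythroid markers summed to 360 to 388 against 215 to 312, led by Car1 at -0.65, or -0.42 without GFP-negative array 2. Differences above 0 numbered 2 of 10 endothelial, 2 of 9 stellate and 1 of 4 erythroid markers, against 44.3% of all genes. Sums are on the linear scale, so the brightest markers weigh most. The 5 cholangiocyte markers (led by Cftr at -0.16) summed to 111 to 124 against 111 to 121. The part of other cells in the Psmb10 difference was not tested, and in sorted fractions fewer such cells and less RNA per cell cannot be told apart.

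Of the interferon and antigen processing genes, 17 of 22 listed were measured and none was called (median -0.099, 3 of 17, or 17.6%, with groups that did not overlap, against 13.8% of all genes). Ifit3, an interferon-induced gene, had the largest difference (-0.83 ± 0.23, adjusted p = 0.19), at 7.40, 8.16 and 7.74 against 7.25, 7.01 and 6.54. In the mouse genome Psmb9, Tap1, Psmb8 and Tap2 lie next to each other within the class II region. Tap1, a subunit of the peptide transporter whose start faces that of Psmb9, differed by 0.028 ± 0.16. Tap2, the other part of the transporter, differed by -0.39 with no overlap between the groups (adjusted p = 0.45).

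Among the alternative caps, the paired genes Psme1 and Psme2, the interferon-inducible activator, differed by -0.22 ± 0.15 (adjusted p = 0.81) and -0.18. Psme1 read 9.56, 9.54 and 9.33 against 9.46, 9.07 and 9.26, with overlap, and differed by -0.12 without GFP-positive array 2. Psme3, its nuclear relative, differed by a positive amount (0.32 ± 0.23, adjusted p = 0.81), at 7.93, 7.32 and 7.70 in GFP-negative and 7.98, 7.57 and 8.36 in GFP-positive arrays. The groups overlapped, but within each number the GFP-positive array was the higher one, by 0.05, 0.25 and 0.66. The difference was 0.13 without GFP-positive array 3, 0.15 without GFP-negative array 2 and 0.52 without GFP-positive array 2. The log2 ratio of Psme3 to Psme1 was 0.53 higher in GFP-positive cells and did not overlap between the groups. That pair was picked after its values were seen and has no test. Psme4, a large activator found in nuclei, differed by -0.13, and the inhibitor Psmf1 by -0.029.

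None of the 7 assembly chaperones was called, with a median of -0.035 and 3 above 0. Psmg1 and Psmg2 build the alpha ring together and differed by 0.047 and 0.069. Their partners Psmg3 and Psmg4 differed by -0.28 ± 0.14 (adjusted p = 0.65) and -0.14. Psmg3 read 5.92, 5.74 and 5.73 in GFP-negative and 5.39, 5.53 and 5.65 in GFP-positive arrays, so the groups did not overlap, though the nearest values were close. The chaperones of the ATPase ring, Psmd5, Psmd9 and Psmd10, differed by -0.066, -0.035 and 0.18 (Psmd10 ± 0.15, adjusted p = 0.84). Psmd5 was marked by 1 array, with 6.77 in GFP-negative array 2 and 5.52 to 6.05 in the other 5.

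The 2 genes outside the 48, Psmc3ip and Psme3ip1, lay above 0. Psmc3ip read 5.49, 5.33 and 5.65 in GFP-negative and 5.83, 5.89 and 5.86 in GFP-positive arrays, with no overlap (0.37 ± 0.14, adjusted p = 0.43, or 0.54 with the replicate block). Psme3ip1 differed by 0.065 ± 0.13 (adjusted p = 0.95).

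A proteasome gene outside the naming rule did rise. Of 12 measured proteasome partners with other symbols, out of 14 listed, 1 was called, Uchl5, against 1.67% of all genes, and 11 were not. Uchl5 encodes a deubiquitinase that docks on the regulatory particle and also on the INO80 chromatin remodeller. It read 8.89, 9.01 and 9.20 in GFP-negative and 9.78, 9.71 and 9.87 in GFP-positive arrays. It was 1.69-fold higher, a log2 difference of 0.76 ± 0.14 (95% interval 0.44 to 1.07, adjusted p = 0.028). With the replicate block its adjusted p was 0.052, and without single arrays it ran from 0.034 (without GFP-negative array 3) to 0.14, so the call was lost without any of the other 5. The fellow deubiquitinase Usp14 differed by -0.0090, the maturation factor Pomp by -0.091, the small lid subunit Sem1 by -0.13, and the median over the 12 was -0.081. The receptor Adrm1, through which Uchl5 docks, was not analysed here.

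Of 11 measured regulators of proteasome transcription, none was called and the median was -0.16. Nfe2l1, which encodes the factor that raises proteasome genes when the protease is blocked, had the largest difference (-0.42 ± 0.15, adjusted p = 0.37). It read 7.84, 7.79 and 7.66 in GFP-negative and 7.53, 7.17 and 7.35 in GFP-positive arrays, with no overlap. Groups did not overlap in 6 of these 11 genes, 5 below (Nfe2l1, Mafk, Keap1, Bach1, Nfyb) and 1 above (Nfe2l2), against 13.8% of all genes. Mafk, Keap1, Bach1, Nfyb and Nfe2l2 differed by -0.201, -0.103, -0.105, -0.289 and 0.123. In Keap1 the nearest values of the groups were 5.98 and 5.97. None of 12 measured genes of ubiquitin activation and shuttling was called (median -0.022), and Uba6, an E1 enzyme, differed most (0.33 ± 0.21, adjusted p = 0.77).

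Promoter windows, from 250 bases before to 50 after a start, were found in RefSeq (GRCm38.p6) for 42 of the 50 genes. The letter patterns named here were searched on both strands in 43 windows of 40 genes, without Psmc3ip and Psme3ip1. TGACNNNGC, the core of the antioxidant response element that Nfe2l1 and Nfe2l2 bind, was in 6 of 43 windows (14%) and in 12.4% of all 32851 windows. TGAGNNNGC, its variant, was in 30.2% against 17.6%. CCAAT, the box bound by NF-Y, was in 32.6% against 37.4%, and TTCNNNGAA, bound by STAT factors, was in 6.98% against 8.30%. TTTGAA, the element of cell cycle genes, was in 3 of 43 windows (6.98%) against 17.9%. The median GC content of the windows was 57.3% against 52.7%. A match is a string of letters and not a binding site. Shown next, in the direction of transcription with the match in capitals, are the 2 catalytic core genes with TGACNNNGC, the called gene Uchl5, which also has it, and Psmb8 with the STAT pattern:
Psmb5, chr14:54618004-54618072, minus strand, match from 47 to 39 bases before the start: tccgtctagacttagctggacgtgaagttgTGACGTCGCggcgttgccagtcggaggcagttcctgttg
Psmb6, chr11:70525318-70525356, plus strand, match from 9 to 1 bases before the start: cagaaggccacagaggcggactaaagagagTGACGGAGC
Uchl5, chr1:143777214-143777277, plus strand, match from 34 to 26 bases before the start: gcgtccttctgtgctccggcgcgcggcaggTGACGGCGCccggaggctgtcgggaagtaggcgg
Psmb8, chr17:34198068-34198136, plus strand, match from 97 to 89 bases before the start: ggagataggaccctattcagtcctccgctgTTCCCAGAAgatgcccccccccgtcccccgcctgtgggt

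Psmb5, Psmb6 and Uchl5 hold the same pattern with different inner bases, and their differences were -0.22, -0.012 and 0.76, the last of them called. Psmc6, Psmd12, Psmd9 and Psme4, the other members with TGACNNNGC, differed by 0.162, -0.104, -0.035 and -0.132. Psmb8 differed by -0.017, and Psmd2 and Psmg1, which also hold TTCNNNGAA, by -0.114 and 0.047.

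Of 56 probe sets of the 50 genes, 5 genes had more than 1, and none of the 56 was called among all 35512. The second probe set of Psma5 gave -0.29 (first -0.21), that of Psmb3 -0.060 (first -0.15), that of Psmc1 0.079 (first 0.11) and that of Psmd2 -0.049 (first -0.11). Levels differed more for Psma5 and Psmb3, with GFP-negative means of 10.24 and 9.04 on the first probe set and 8.99 and 8.15 on the second. For Psmc1 and Psmd2 they were 9.86 and 8.89 on the first and 9.75 and 8.86 on the second. Cross-hybridisation with near-identical processed copies of these genes was not tested, and 1 further probe set that the annotation assigns to Psme2 and a second gene was not used.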

How the data were processed

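For each array and probe set the authors deposited an intensity on a linear scale, computed with RMA per the submitters' processing notes, with no version or settings named there. Total RNA (amplified, biotin-labelled) was hybridised, per the labels' protocols. Intensities ran from 1.62 to 15836, so log2 was taken, with no further normalization. Of 35512 probe sets, 21789 had 1 symbol, 1621 several and 12102 none; symbols were updated through Entrez identifiers for 21698 (GRCm38.p6 names).

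All 19938 genes were fitted in R 4.3.3 with group as the single term of lmFit and eBayes (limma 3.58.1, 4 residual and 5.44 prior degrees of freedom), with Benjamini-Hochberg adjustment over all genes. The fit was tested on simulated data with independent noise, where only the largest of the planted differences had to be recovered. That test does not say whether differences as small as those of the members would be called. Members and lists were chosen with earlier results of these data known. Differences, errors and adjusted p were given for called members and the 2 largest differences per role; lists by called genes, or else the largest difference. Of 158 listed genes, 22 were not matched. Same-numbered arrays' deviations correlated by 0.198, 0.0618 and -0.0506. Numbers were taken as mice, which no label states. The series' design gives 3 livers, and Xist places only number 2 together. Summaries used pandas 2.3.3 and numpy 2.4.6, plots matplotlib 3.10.9, all under Python 3.11.15. Alternatives tried were the replicate block, other normalizations, filters, probe set rules, fit options and left-out arrays. The number of arrays limits precision.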

Additional observations from a re-analysis of the deposited data

How the results depend on the processing

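None of the 50 genes was called in either direction under any alternative run: the replicate block, quantile normalization, median centring, a filter on low values (48 of the 50 stayed), the mean of all probe sets, an intensity trend, array weights, each array left out, and both arrays of number 2 left out. The smallest adjusted p of a member over these was 0.21 (quantile normalization). Over all genes the replicate block gave 327 higher and 28 lower, against 310 and 23, and among the genes named it ended the calls of Uchl5 and Clec4f and changed no other call. The lower count was 53 with array weights, 38 with quantile normalization, 13 with median centring and 9 without number 2. Leaving out single arrays gave 6 (GFP-negative 1) to 29 lower genes (GFP-negative 3), and 11 where GFP-negative 2 was missing; each GFP-positive array left out gave 9. The alpha ring median, -0.025, was -0.067 with array weights and ran from -0.082 to 0.046 without single arrays. Those of the beta ring (-0.212 to 0.004), ATPases (-0.070 to 0.127), non-ATPases (-0.148 to 0.046) and chaperones (-0.213 to 0.052) also crossed 0, and without number 2 they were 0.037, 0.051, 0.021 and 0.197. Psmb3 was 0.037 without number 2, and Cftr ran from -0.47 to 0.13 without single arrays, 0.128 being without GFP-negative 3. The cause of these shifts was not tested.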

Other observations

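Akirin2, which carries assembled proteasomes into the nucleus, and Ipo9, the import receptor it works with, were picked after their values were seen, as was Ublcp1. Akirin2 read 7.04, 7.11 and 7.06 in GFP-negative and 7.31, 7.59 and 7.43 in GFP-positive arrays, with no overlap between the groups, and was not called (0.37 ± 0.14, adjusted p = 0.41, or 0.51 with the replicate block). Ipo9 differed by 0.34 ± 0.18 (adjusted p = 0.66), and its groups overlapped. Ublcp1, a phosphatase of nuclear proteasomes, differed by 0.32 ± 0.20 (adjusted p = 0.76), also with overlap. None of these 3 differences passed the test. Psme4, an activator also found in nuclei, differed by -0.13.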
